A study of Mus musculus with 48 samples.

Results

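Trem2 and 9 further genes that mark lipid-associated macrophages (Gpnmb, Cd9, Cd63, Spp1, Lgals3, Itgax, Mmp12, Clec7a and Cd44) were followed in mouse liver across 3 Pparα genotypes and 2 diets. The probes were chosen by gene name alone: 19 of the 56605 probes that are not controls carried the name of 1 of these 10 genes, and 16 of the 19 were among the 33321 probes tested, which stand for 22027 gene names. All 10 genes had a tested probe. The 3 probes left out, 2 for Itgax and 1 for Cd9, were too dim in all groups. Liver RNA came from 48 male C57BL/6J mice aged 20 weeks, 1 array per mouse, in 6 groups of 8. WT mice carried intact Pparα and came from a commercial supplier. Pparα hep-/- mice carried a floxed Pparα gene on both alleles and 1 copy of a Cre transgene driven by the albumin promoter, so the deletion falls in hepatocytes and other liver cells still have the gene. Pparα-/- mice lack Pparα in every cell of the body. Both deleted genotypes came from the study's own facility, so genotype and origin cannot be told apart in comparisons with WT mice. Each genotype was fed a low-fat diet (CTRL) or a high-fat diet with 60% fat (HFD), for 12 weeks by the sample labels, and all mice were kept at thermoneutrality.

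PPARα is a nuclear receptor that hepatocytes use to switch on fatty acid oxidation. TREM2 is a surface receptor of macrophages that binds lipids and lipoproteins and signals through the adaptor TYROBP and the kinase SYK. Macrophages that take up lipid in fatty tissue turn on a shared set of genes that includes Trem2, Gpnmb, Cd9 and Spp1, and in fatty liver such cells largely arise from monocytes that enter from the blood. Several of the 10 genes are made by other cells too: Spp1, Cd9 and Cd44 by bile duct cells, Itgax by dendritic cells, and Cd63 and Lgals3 by many cell types. In whole liver, fewer cells of a type and less RNA per cell cannot be told apart.

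Short pieces of the genes' own promoters are shown because PU.1, the factor that defines macrophages, and AP-1 read such motifs, and because most of these genes moved together below. The RefSeq promoter table (GRCm38.p6) held 13 windows for the 10 genes among 32851 windows of 300 bases, 250 before and 50 after each start, and both strands were searched. The PU.1 motif GAGGAAG lay in 5 of the 13 windows, 1 each for Trem2, Cd44, Cd63, Spp1 and Mmp12, against 13.6% of all windows. The AP-1 motif TGANTCA lay in 4 of the 13, for Trem2, Itgax, Gpnmb and Mmp12, against 7.81% of all windows. The E-box CATGTG lay in 2 windows, for Cd9 and Mmp12, against 14.2% of all windows. CACGTG (7.15% of all windows), kappa B (4.51%) and AGGTCA repeats 1 base (0.0396%) or 4 bases (0.0152%) apart, forms read by nuclear receptors, had no match in the 13 windows, and no motif was searched that contains another. In the pieces that follow, 30 bases each and printed along the gene's strand, capitals mark the PU.1 motif on either strand in the first 5 and the AP-1 motif in the last 3.
Trem2, chr17:48346349-48346378, plus strand: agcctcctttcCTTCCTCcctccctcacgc
Cd63, chr10:128909274-128909303, plus strand: ctagacaagggCTTCCTCaaagggttttct
Spp1, chr5:104434987-104435016, plus strand: caaaaccagagGAGGAAGtgtaggagcagg
Cd44, chr2:102901868-102901897, minus strand: gataagtccagCTTCCTCagcttcctggga
Mmp12, chr9:7344299-7344328, plus strand: cacttcacccaCTTCCTCttccaagactcc
Trem2, chr17:48346371-48346400, plus strand: cctcacgcccttctccctcctTGAATCAca
Itgax, chr7:128129483-128129512, plus strand: cccacctcctcTGAGTCAcgctgacaactt
Mmp12, chr9:7347319-7347348, plus strand: gacatcaacagTGAGTCAgatagaggattt
Trem2 had both motifs in the same window, and Mmp12 had them in different windows. A match is a description of the letters and not of a bound site.

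A few mice stood apart from their groups and carried much of the spread of these genes. The fit gave each array a weight by how far it lay from its group over all probes, from 0.189 to 2.53 with a median of 1.08, and 4 arrays had a weight under 0.4. In Pparα hep-/- CTRL mouse 1 (weight 0.189) all 10 genes were the highest of the 8 mice, a median of 2.84 log2 units above the group's median. In WT CTRL mouse 6 (weight 0.208) 9 of 10 were the highest, with a median of 2.69 above, and in WT HFD mouse 6 (weight 0.372) 8 of 10, with a median of 2.47 above. WT HFD mouse 2 (weight 0.343) was close to its group for most of the genes, with a median of 0.04 above, but had the group's highest Spp1 level, 14.61. Pparα-/- CTRL mouse 2 had 9 of 10 genes highest, a median of 2.49 above, with a weight of 0.756, and WT CTRL mouse 8 had 8 of 10 among the 2 highest, a median of 1.99 above, with a weight of 0.556. Over the probes that separate the diets among the other mice of its genotype, Pparα hep-/- CTRL mouse 1 was nearer its own diet at 29% of 586 probes, Pparα-/- CTRL mouse 2 at 29.8% of 1205 and WT CTRL mouse 7 was at 36.5% of 414, so all 3 lay nearer the HFD mice. All arrays stayed in their labelled groups, and the main counts of genes that rose or were higher are also given without array weights.

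Ppara itself was lower in both deleted genotypes on HFD. Its brighter probe had a median of 15.07 in WT HFD mice, 14.24 in Pparα hep-/- HFD mice and 14.03 in Pparα-/- HFD mice, and neither deleted group overlapped the WT group on HFD. On CTRL the difference from WT was -0.42 in Pparα hep-/- and -0.65 in Pparα-/- mice. Its second probe gave -0.68 and -1.29 against WT on HFD, and on CTRL -0.10 without a call in Pparα hep-/- mice (adjusted p = 0.454, limma) and -1.11 in Pparα-/- mice. Where these probes lie relative to the deleted exon is not given in the sources used here, so remaining signal says nothing of intact receptor.

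**Figure D1:**
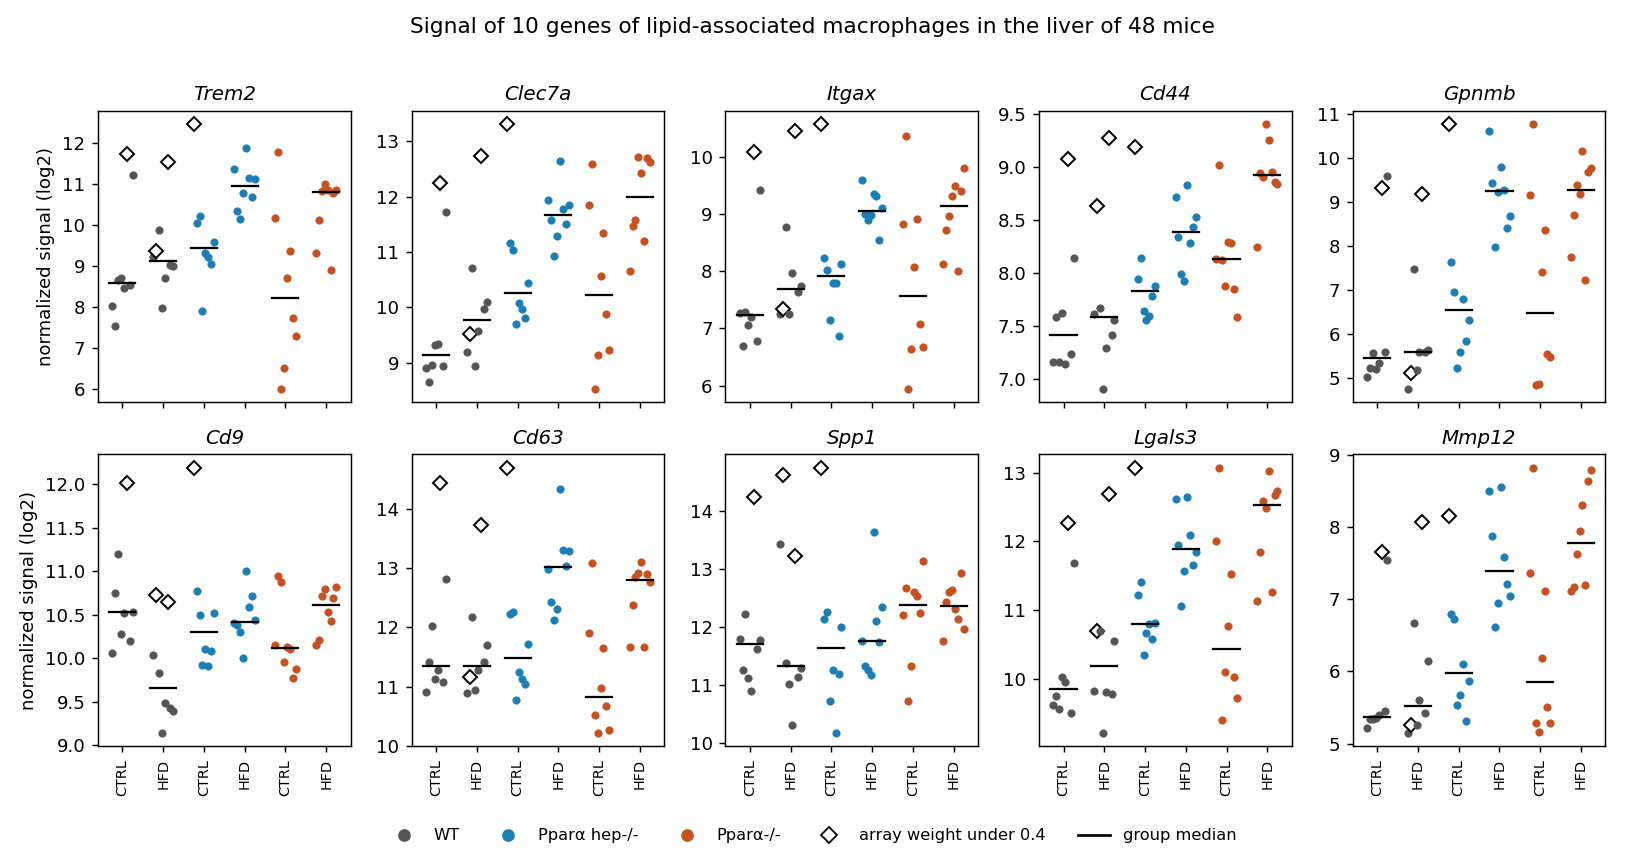
Normalised log2 intensity of the 10 genes (vertical axes) in each of the 48 mice by genotype and diet (horizontal axes), with open diamonds for the 4 arrays of weight under 0.4. Gpnmb medians were 9.25 and 9.28 in the Pparα hep-/- and Pparα-/- HFD mice and 5.6 in the WT HFD mice, and single CTRL mice reached the HFD range.

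Trem2 rose with HFD in both deleted genotypes and gave no call in WT mice. In WT mice its log2 intensity ran from 7.54 to 11.74 on CTRL (median 8.60) and from 7.99 to 11.54 on HFD (median 9.12). In Pparα hep-/- mice it ran from 7.91 to 12.46 on CTRL (median 9.45) and from 10.14 to 11.87 on HFD (median 10.94). In Pparα-/- mice it ran from 6.01 to 11.77 on CTRL (median 8.23) and from 8.90 to 11 on HFD (median 10.81). The groups overlapped in each genotype because 1 or more CTRL mice were as high as the HFD mice, while no Pparα hep-/- HFD mouse was as low as the CTRL median. The fitted change was 0.37 in WT (adjusted p = 0.688 by limma), 1.81 ± 0.43 (SE) in Pparα hep-/- (3.50-fold, adjusted p = 0.00231) and 1.84 ± 0.45 in Pparα-/- mice (3.58-fold, adjusted p = 0.00229). Within the 2 wash batches that the labels give, the change was 2.11 and 1.59 in Pparα hep-/- and 3.02 and 0.92 in Pparα-/- mice. With each array left out in turn it lay between 1.56 and 1.91 in Pparα hep-/- and between 1.56 and 2.22 in Pparα-/- mice, and kept its call throughout. The probe lies at chr17:48491537-48491596 (mm9).

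Over all 10 genes, 1 changed with HFD in WT mice, Cd9, and it fell. There 18.8% of all probes tested were called and 10.1% were called lower. In Pparα hep-/- mice 8 of 10 rose and none fell, where 20.2% of all probes were called and 9.45% were called higher. The same count, 8 of 10, rose in Pparα-/- mice, where 24.8% were called and 12.3% were called higher. Their median change was 0.11 for WT mice, 1.51 for Pparα hep-/- mice and 1.42 for Pparα-/- mice. The median over all probes lay between -0.03 and 0.01 in these and the other comparisons. Cd9 and Spp1 were the 2 genes without a call in either deleted genotype. These calls rest on the array weights. Without weights 0 of 10 genes were called in Pparα hep-/- mice and 4 of 10 in Pparα-/- mice (Trem2, Cd44, Lgals3 and Mmp12). The shares of all probes given here are those of the weighted fit. With the 4 low-weight arrays left out and no weights the counts were again 8 and 8. That setting is not separate support, because it removes mice named above in which most of these genes were the highest of their group. With 1 array left out at a time and weights kept, the counts ran from 7 to 8 and from 7 to 9.

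**Figure D2:**
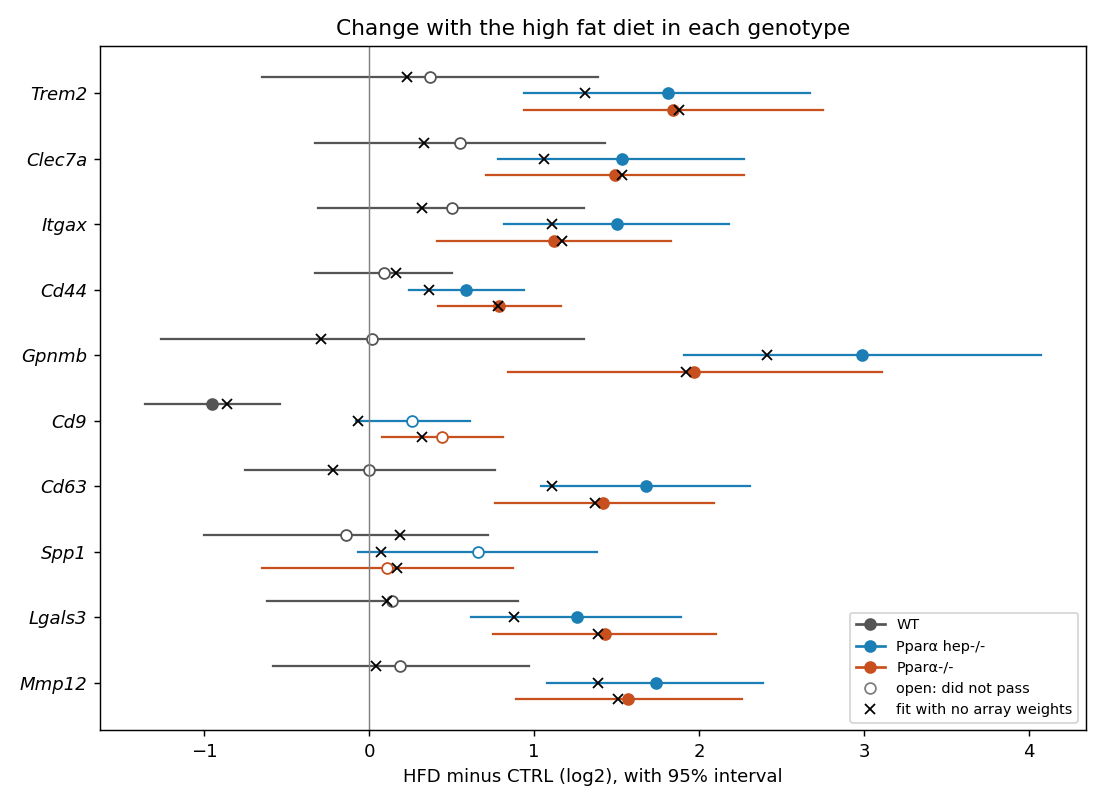
Fitted HFD minus CTRL change in log2 intensity (horizontal axis) for each gene (vertical axis) by genotype, with 95% intervals, filled points for changes that passed adjusted p of 0.05, open points for those that did not, and crosses for the estimate without array weights. The WT points other than Cd9 at -0.95 lie between -0.14 and 0.55 and are open, and Gpnmb lies at 2.99 in Pparα hep-/- mice.

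Clec7a, the receptor Dectin-1 for fungal glucans, followed the Trem2 pattern. Its log2 intensity in WT mice ran from 8.65 to 12.24 on CTRL (median 9.15) and from 8.95 to 12.74 on HFD (median 9.78). The range in Pparα hep-/- mice was from 9.71 to 13.31 on CTRL (median 10.26) and from 10.93 to 12.65 on HFD (median 11.67), and in Pparα-/- mice from 8.53 to 12.58 (median 10.23) and from 10.66 to 12.72 (median 11.99). The ranges overlapped in each genotype, with the lowest HFD mouse of both deleted genotypes above the CTRL median. HFD raised it by 1.53 ± 0.37 in Pparα hep-/- (2.88-fold, adjusted p = 0.00283) and by 1.49 ± 0.39 in Pparα-/- mice (2.80-fold, adjusted p = 0.00404), against 0.55 in WT (adjusted p = 0.431, limma). A second Clec7a probe gave smaller changes, 0.70 and 0.47, that also passed.

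Itgax encodes the integrin subunit CD11c, found on dendritic cells and on macrophages of fatty tissue. In WT mice it ran from 6.70 to 10.09 on CTRL (median 7.23) and from 7.25 to 10.45 on HFD (median 7.69). Levels in Pparα hep-/- mice ran from 6.87 to 10.58 on CTRL (median 7.91) and from 8.54 to 9.60 on HFD (median 9.05), and in Pparα-/- mice from 5.94 to 10.36 (median 7.57) and from 8.00 to 9.81 (median 9.14). The highest CTRL mouse lay above all HFD mice of its genotype in both deleted genotypes. Its rise was 1.5 ± 0.34 in Pparα hep-/- (2.82-fold, adjusted p = 0.0014) and 1.12 ± 0.35 in Pparα-/- mice (2.18-fold, adjusted p = 0.0163), and 0.50 in WT did not pass (adjusted p = 0.44, limma). The call in Pparα-/- mice was lost when CTRL mouse 4, 7 or 8 was left out, with the change between 0.90 and 1.42 over all arrays left out 1 at a time.

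Cd44, a receptor for hyaluronan and for the SPP1 protein, had the smallest of the called rises. In WT mice its log2 intensity ran from 7.15 to 9.08 on CTRL (median 7.42) and from 6.91 to 9.28 on HFD (median 7.59). In Pparα hep-/- mice it ran from 7.56 to 9.19 (median 7.84) and from 7.93 to 8.83 (median 8.39), and in Pparα-/- mice from 7.59 to 9.02 (median 8.14) and from 8.25 to 9.41 (median 8.93). All Pparα-/- HFD mice were above the Pparα-/- CTRL median, and the ranges still overlapped. The changes were 0.59 ± 0.18 in Pparα hep-/- (1.51-fold, adjusted p = 0.0139) and 0.79 ± 0.18 in Pparα-/- mice (1.72-fold, adjusted p = 0.00153), with 0.09 in WT (adjusted p = 0.839, limma). Leaving out Pparα hep-/- CTRL mouse 4 or HFD mouse 5 ended the call in that genotype. A further Cd44 probe, well above background on at most 4 of 8 arrays of a group, gave no call for HFD against CTRL and was not used.

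Gpnmb, a membrane glycoprotein of lysosome-rich macrophages, rose in both deleted genotypes, with 6 and 4 of the 8 CTRL arrays of Pparα hep-/- and Pparα-/- mice well above background. In WT mice it ran from 5.03 to 9.59 on CTRL (median 5.46) and from 4.76 to 9.19 on HFD (median 5.6), and 2 and 3 of 8 arrays were well above background. Among Pparα hep-/- mice it ran from 5.24 to 10.77 on CTRL (median 6.56) and from 7.98 to 10.61 on HFD (median 9.25), and in Pparα-/- mice from 4.85 to 10.77 (median 6.48) and from 7.24 to 10.16 (median 9.28). All 8 HFD arrays of both deleted genotypes were well above background, and each lay above its CTRL median, while the highest CTRL mouse was above them all. The change was 2.99 ± 0.54 in Pparα hep-/- (7.94-fold, adjusted p = 0.000103) and 1.97 ± 0.56 in Pparα-/- mice (3.92-fold, adjusted p = 0.0084), and 0.02 in WT (adjusted p = 0.991, limma). In Pparα-/- mice it was 3.16 in the first wash batch and 0.96 in the second. Over the alternatives it lay between 2.41 and 4.16 in Pparα hep-/- mice and between 1.65 and 2.80 in Pparα-/- mice. The probe lies at chr6:49006386-49006445 (mm9).

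The 2 tetraspanins of the set, membrane proteins of the cell surface and of endosomes, behaved differently. Cd63 in WT mice ran from 10.90 to 14.43 on CTRL (median 11.35) and from 10.89 to 13.73 on HFD (median 11.35). Without hepatocyte Pparα it ran from 10.77 to 14.69 (median 11.48) and from 12.12 to 14.33 (median 13.01), and in Pparα-/- mice from 10.22 to 13.09 (median 10.82) and from 11.67 to 13.10 (median 12.81). The WT medians were equal, and all HFD mice of both deleted genotypes were above their CTRL median. Cd63 rose by 1.68 ± 0.32 in Pparα hep-/- (3.20-fold, adjusted p = 0.000179) and by 1.42 ± 0.33 in Pparα-/- mice (2.68-fold, adjusted p = 0.00146, limma).

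Cd9 fell with HFD in WT mice. It ran there from 10.06 to 12.01 on CTRL (median 10.52) and from 9.14 to 10.73 on HFD (median 9.65), a change of -0.95 ± 0.20 (1.94-fold lower, adjusted p = 0.000719, limma). In Pparα hep-/- mice it ran from 9.91 to 12.19 (median 10.30) and from 10 to 11 (median 10.42), and in Pparα-/- mice from 9.77 to 10.94 (median 10.12) and from 10.15 to 10.82 (median 10.61). The HFD range lay within the CTRL range in both deleted genotypes, and changes of 0.26 (adjusted p = 0.292) and 0.44 (adjusted p = 0.0654) did not pass. The WT ranges overlapped as well. The fall in WT kept its call in all 48 single-array omissions, between -1.07 and -0.83, and without array weights.

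The 3 secreted proteins also behaved differently from each other, with Lgals3 and Mmp12 rising in the deleted genotypes and Spp1 giving no call for diet in any genotype. Spp1 encodes osteopontin, a matrix protein made by bile duct cells as well as macrophages. In WT mice it ran from 10.89 to 14.23 on CTRL (median 11.70) and from 10.31 to 14.61 on HFD (median 11.33). Pparα hep-/- mice ranged from 10.17 to 14.74 (median 11.63) and from 11.16 to 13.63 (median 11.75), and in Pparα-/- mice from 10.72 to 13.13 (median 12.38) and from 11.75 to 12.93 (median 12.36). Its group medians moved by little with diet beside ranges of up to several log2 units, and changes of -0.14, 0.66 and 0.11 (adjusted p = 0.872, 0.197 and 0.863, limma) did not pass. The sign in WT and the size in Pparα hep-/- mice rest on the fit with array weights. Plain means on CTRL and HFD were 11.86 and 12.05 in WT and 11.81 and 11.91 in Pparα hep-/- mice.

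Lgals3, galectin-3, binds sugars on glycoproteins and is used as a macrophage marker. In WT mice it ran from 9.50 to 12.27 on CTRL (median 9.85) and from 9.21 to 12.69 on HFD (median 10.18). The range in Pparα hep-/- mice was from 10.34 to 13.07 (median 10.80) and from 11.05 to 12.65 (median 11.89), and in Pparα-/- mice from 9.40 to 13.06 (median 10.43) and from 11.13 to 13.03 (median 12.53). Each HFD mouse of the deleted genotypes was above its CTRL median, and 1 CTRL mouse of each deleted genotype was above its HFD range. The change was 1.26 ± 0.32 in Pparα hep-/- (2.39-fold, adjusted p = 0.00416) and 1.43 ± 0.33 in Pparα-/- mice (2.69-fold, adjusted p = 0.00152, limma).

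Mmp12, a macrophage elastase, was near background in most WT mice, with 2 of 8 CTRL and 3 of 8 HFD arrays well above it. Its log2 intensity ran there from 5.21 to 7.66 on CTRL (median 5.38) and from 5.15 to 8.07 on HFD (median 5.52). In Pparα hep-/- mice it ran from 5.32 to 8.15 (median 5.99) and from 6.61 to 8.55 (median 7.40), and in Pparα-/- mice from 5.16 to 8.82 (median 5.85) and from 7.11 to 8.79 (median 7.78). All 8 HFD arrays of each deleted genotype were well above background, and their lowest level was above the CTRL median, though the ranges overlapped. It rose by 1.74 ± 0.32 in Pparα hep-/- (3.33-fold, adjusted p = 0.000165) and by 1.57 ± 0.34 in Pparα-/- mice (2.97-fold, adjusted p = 0.000708, limma), from CTRL groups with 5 and 4 of 8 arrays well above background. The size depends on the signal used: it lay between 1.19 and 2.88 in Pparα hep-/- mice and between 1.22 and 2.42 in Pparα-/- mice over the alternatives, with the highest values from the processed signal. The other Mmp12 probes were nearer background and their changes with HFD are not given.

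The comparison of genotypes on HFD asked whether the genes were higher without Pparα. They were higher than in WT mice for 9 of 10 genes in Pparα hep-/- mice, where 26.7% of all probes were called and 13.3% were called higher, and for 10 of 10 in Pparα-/- mice, where 45.7% were called and 21.8% were called higher. Both comparisons share the WT HFD mice. Gpnmb was higher by 3.41 (adjusted p = 1.14e-05) in Pparα hep-/- and by 3.27 (adjusted p = 4.24e-06) in Pparα-/- mice. Because 3 of 8 WT HFD arrays measured Gpnmb well above background, and 3 of 8 Mmp12, the sizes of these differences rest partly on background signal. Trem2 was higher by 1.98 (adjusted p = 0.000788) and 1.36 (adjusted p = 0.0105), Lgals3 by 1.87 (adjusted p = 3.66e-05) and 2.17 (adjusted p = 5e-07), and Clec7a by 1.84 (adjusted p = 0.000351) and 2.07 (adjusted p = 1.66e-05). Mmp12 was higher by 1.83 and 2.13, Cd63 by 1.59 and 1.06, Itgax by 1.30 and 1.19, Cd9 by 0.95 and 0.99, and Cd44 by 0.86 and 1.37, with limma adjusted p of at most 0.00669. Spp1 gave no call in Pparα hep-/- mice (0.60, adjusted p = 0.243, limma), where the sign rests on the array weights: the plain means were 11.91 against 12.05 in WT, and the value without weights was -0.15. In Pparα-/- mice Spp1 was higher by 0.95 (adjusted p = 0.0327, limma), a call kept in 6 of 12 alternatives, with values from 0.29 to 0.99, and lost in 7 of the 48 single-array omissions. The count in Pparα-/- mice was 9 of 10 with a slide block, a replicate block or no wash term and 8 with no filter. No gene's groups were free of overlap, and few of all tested probes had such groups. With the hepatocyte deletion all HFD mice lay above every WT HFD mouse at 0.528% of probes and below at 0.915%. For the whole-body deletion these shares were 3.01% and 3.92%. Overlap in all 10 genes therefore does not set them apart from other probes. WT HFD mouse 6 was the highest of its group for 8 of the 10 genes. Without array weights 3 of 10 genes (Gpnmb, Lgals3 and Mmp12) were called in Pparα hep-/- and 6 of 10 in Pparα-/- mice.

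On CTRL few of these genes gave a call between genotypes. None of 10 was called between Pparα hep-/- and WT mice, where 24.7% of all probes were, although 2 had an unadjusted p under 0.05. In Pparα-/- against WT mice 34.2% of all probes were called and 15.6% were called higher, and of the 10 genes Clec7a was higher by 1.14 (adjusted p = 0.0412) and Cd44 by 0.67 (adjusted p = 0.0108, limma). The Clec7a call was lost in 9 of the 48 single-array omissions, and neither gene was called without array weights. Between Pparα-/- and Pparα hep-/- mice 0 of 10 were called by limma on CTRL, where 25.2% of all probes were and 1 of the 10 had an unadjusted p under 0.05. On HFD the same comparison called Cd44 alone, higher by 0.51 in Pparα-/- mice (adjusted p = 0.0187), with 30.6% of all probes called and 15.2% called higher. That call was lost without Pparα hep-/- HFD mouse 6 and without array weights.

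The difference between genotypes in the HFD response was tested directly. The HFD minus CTRL change of Pparα hep-/- mice lay above that of WT mice for 4 of 10 genes, where 10.4% of all probes were called and 4.62% were called higher. These were Gpnmb by 2.97 (adjusted p = 0.0181), Cd63 by 1.67 (adjusted p = 0.023), Mmp12 by 1.54 (adjusted p = 0.0409) and Cd9 by 1.22 (adjusted p = 0.00285, limma). In WT mice Gpnmb and Mmp12 were each well above background on 2 of 8 CTRL and 3 of 8 HFD arrays. They passed the filter through the deleted genotypes, so their WT change and the sizes of their differences rest largely on background signal. The change of Pparα-/- mice lay above that of WT for 2 of 10, Cd9 by 1.4 (adjusted p = 0.000518) and Cd63 by 1.42 (adjusted p = 0.0477, limma), where 14.3% of all probes were called and 6.93% were called higher. For Cd9 the called change was the fall in WT, at -0.95, beside 0.26 and 0.44 without a call in the deleted genotypes. For Trem2 the differences of 1.44 and 1.47 did not pass (adjusted p = 0.156 and 0.136), so its rise in the deleted genotypes is not shown to differ from that in WT mice. Cd9 is the gene whose difference kept its call in both genotypes under all single-array omissions. The Mmp12 call was lost in 17 of 48 and the Cd63 call in Pparα-/- mice in 27 of 48. Without array weights 0 and 1 of 10 responses were called against WT, and without the 4 low-weight arrays 4 and 5. A slide or replicate block left 2 and 1, and no wash term 1 and 1. A second Lgals3 probe fell on the other side of the threshold from the brightest one, with 1.48 (adjusted p = 0.0371) in Pparα-/- mice, against 1.28 (adjusted p = 0.0757, limma) for the brightest. So did both dimmer Mmp12 probes: in Pparα hep-/- mice they gave no call (adjusted p = 0.114 and 0.0578), and in Pparα-/- mice they were called (adjusted p = 0.0466 and 0.0354) where the brightest was not (adjusted p = 0.0618, limma). Between the deleted genotypes 0 of 10 responses differed by limma, where 3.42% of all probes were called, and 0 had an unadjusted p under 0.05.

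Among mice of the same group, most of the genes rose and fell with Trem2. After group and wash batch means were removed, Pearson's r with Trem2 over the 48 mice was 0.95 for Clec7a (Spearman's rho 0.91), 0.94 for Itgax, Gpnmb and Lgals3 (0.90 each), 0.91 for Cd63 (0.88), 0.90 for Mmp12 (0.83) and 0.83 for Cd44 (0.77). Cd9 and Spp1 followed it less closely, with r of 0.66 (rho 0.55) and 0.64 (rho 0.64). In permutation tests of the 9 relations, with 100000 resamples, r had a p of 1e-05, the smallest they can give, for 8 of the 9 (1.12e-05 after Benjamini-Hochberg adjustment) and of 4e-05 for Cd9 (adjusted p = 4e-05). With the 2 mice farthest from the Trem2 median left out, r was 0.94 for Clec7a, 0.78 for Cd44, 0.54 for Cd9 and 0.59 for Spp1. Without the 4 low-weight arrays it was 0.36 for Cd9, 0.40 for Spp1 and 0.72 for Cd44, and between 0.84 and 0.92 for the others. Within wash batches, r for Spp1 was 0.82 in the first and 0.22 in the second (permutation p = 0.168). Between members, r ran from 0.49, for Spp1 with Gpnmb and with Mmp12, to 0.96, and points of these relations share an array and its processing.

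**Figure D3:**
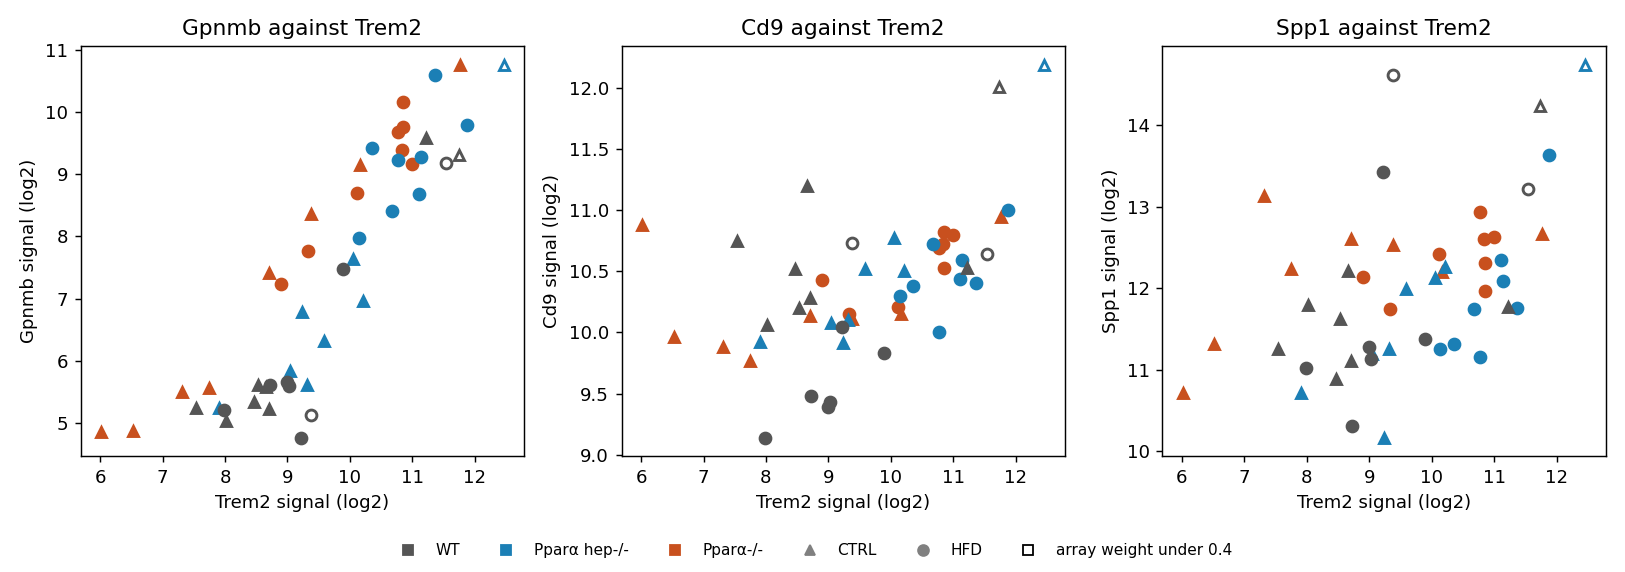
Log2 intensity of Gpnmb, Cd9 and Spp1 (vertical axes) against Trem2 (horizontal axes) in the 48 mice, coloured by genotype, with triangles for CTRL and circles for HFD and open markers for the 4 arrays of weight under 0.4. Gpnmb rises with Trem2 across the groups (r 0.94 with group means removed), while Cd9 and Spp1 scatter (r 0.66 and 0.64).

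**Figure D4:**
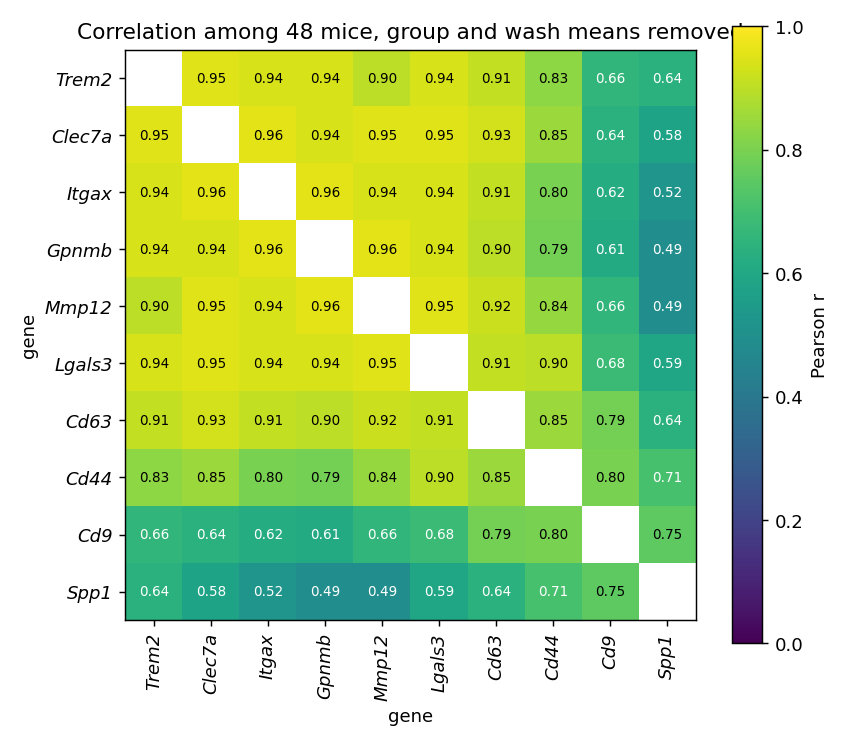
Pearson's r for each pair of the 10 genes over 48 mice, with group and wash batch means removed (colour, both axes list the genes). The 8 genes other than Cd9 and Spp1 form a block of high values, and the lowest value is 0.49.

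Over all 21913 gene names compared, the 10 whose levels correlated best with Trem2 across the 48 mice, with r between 0.92 and 0.93, were Itgax, Col1a1, Cd63, Col6a1, Pkm, Col6a3, Bcl2a1d, Arhgap22, Col3a1 and Plxdc2. Only wash batch means were removed here, so differences between the groups count in this r and in the ranks. With group means removed as well, r for these 10 lay between 0.89 and 0.96. Of these, Itgax and Cd63 belong to the 10 macrophage genes, and Col1a1, Col6a1, Col6a3 and Col3a1 encode collagen chains, made in liver by stellate cells and fibroblasts. Other members ranked 23 (Clec7a), 48 (Lgals3), 52 (Gpnmb), 124 (Mmp12), 841 (Cd44), 2128 (Cd9) and 2504 (Spp1). Col1a1 rose with HFD by 2.18 in Pparα hep-/- (adjusted p = 0.0011) and by 1.51 in Pparα-/- mice (adjusted p = 0.0228), with 0.46 in WT (adjusted p = 0.645, limma). The Pparα-/- change was 3.45 in the first wash batch and -0.12 in the second, so its direction turned between batches.

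Partners of TREM2 in signalling were followed next. Of 11 tested genes of the receptor complex and its signalling, 0 changed with HFD in WT, 7 rose in Pparα hep-/- and 9 rose in Pparα-/- mice. Tyrobp, the adaptor that carries the signal, rose by 0.78 and 1.21, and Syk, the kinase it recruits, was among the genes called in both. Ms4a7, a membrane protein of macrophages, rose by 1.56 and 1.5. On HFD, 9 and 10 of the 11 were higher than in WT mice in the Pparα hep-/- and Pparα-/- genotypes. Both sets of counts lose calls without array weights. With HFD 0 of 11 then rose in Pparα hep-/- and 5 in Pparα-/- mice, and against WT on HFD 1 and 9 were higher. Among all probes, 8.6% rose with HFD in WT, 9.45% and 12.3% rose in the deleted genotypes and 13.3% and 21.8% were higher than in WT on HFD, the background for the counts of each list that follows. The HFD minus CTRL change itself lay above that of WT for 1 and 2 of the 11 genes in Pparα hep-/- and Pparα-/- mice. Of all probes 4.62% and 6.93% did so.

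Genes of lipid handling and of the lysosome, the machinery that digests what macrophages take up, were mixed. Of 15 tested lipid handling genes 3 rose and 3 fell in WT, 4 rose and 1 fell in Pparα hep-/-, and 9 rose and 1 fell in Pparα-/- mice. Fabp5, a fatty acid carrier, fell in all 3 genotypes, with changes of -3.0, -4.25 and -2.34, while Lpl, the lipase that releases fatty acids from lipoproteins, fell by 1.26 in WT and rose by 1.17 and 1.43 in the deleted genotypes. Apoe, the apolipoprotein that TREM2 binds, had HFD minus CTRL values of -0.01, 0.00 and 0.00, none called. As for the rest of this list, these are values of whole liver and not of macrophages alone. Of 20 lysosomal genes 5 rose and 1 fell in WT, 11 rose in Pparα hep-/- mice and 10 rose in Pparα-/- mice. Ctss, a protease, rose by 0.79 and 1.13. Of 19 ligands, receptors and matrix partners of the 10 genes, 6 and 9 rose in the deleted genotypes and 1 fell in WT. Without array weights the genes that rose with HFD in WT, Pparα hep-/- and Pparα-/- mice numbered 1, 0 and 5 for lipid handling, 2, 2 and 7 for the lysosome, and 0, 1 and 4 for the partners, so most calls in Pparα hep-/- mice were lost. The response differed from WT in the deleted genotypes for 1 and 5 lipid handling genes, 2 and 5 lysosomal genes, and 1 and 5 partners. Of all probes 10.4% and 14.3% did so.

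**Figure D5:**
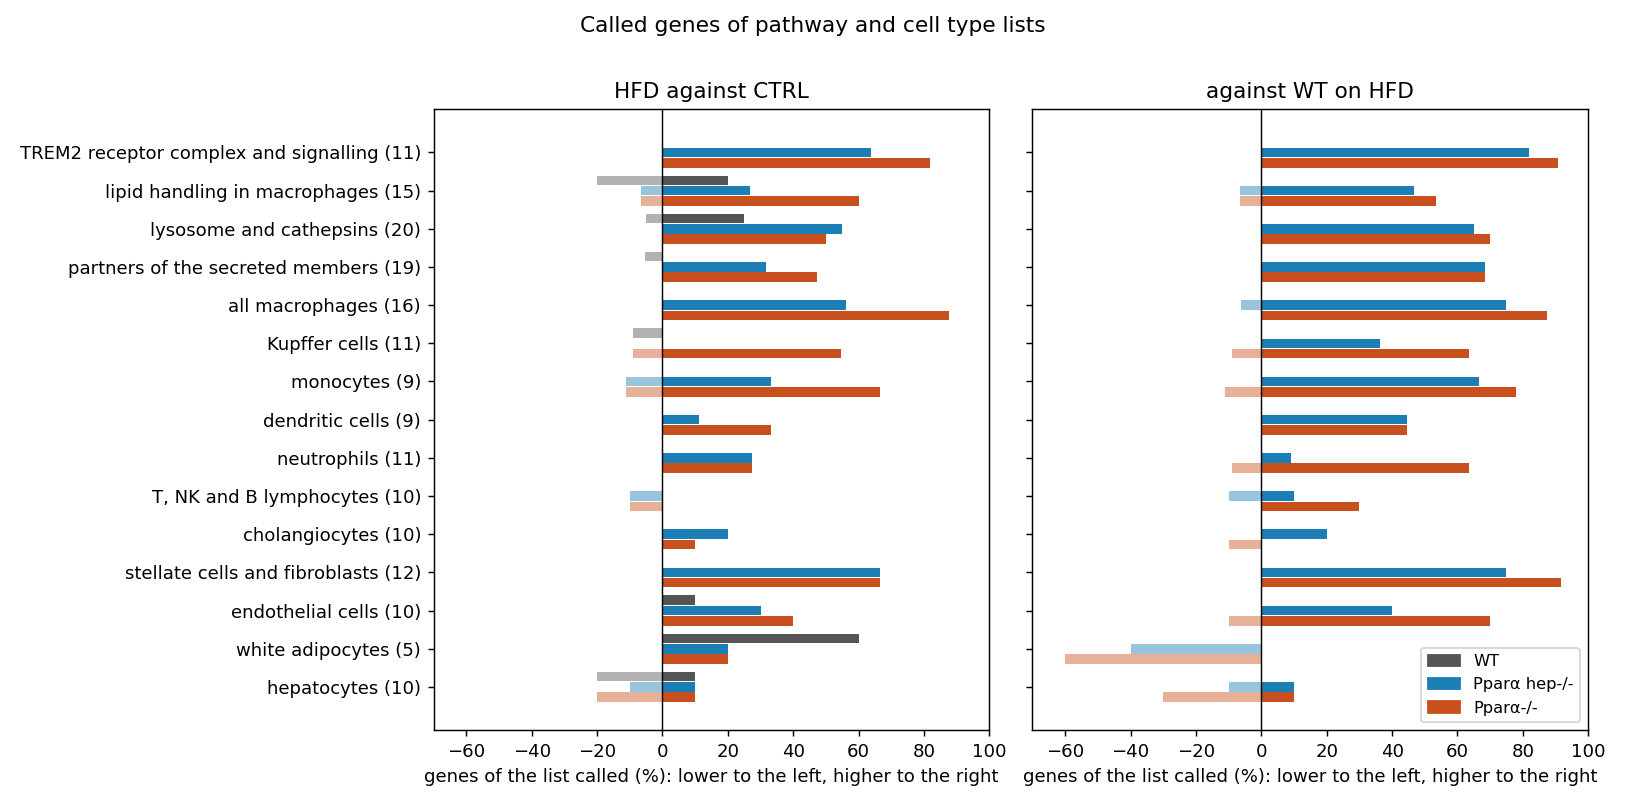
Share of each gene list called higher or lower in % (horizontal axis), by list (vertical axis), for HFD against CTRL in the 3 genotypes and for each deleted genotype against WT on HFD. The bars of the TREM2 complex, macrophage and stellate cell lists are long in both deleted genotypes and at 0 for HFD in WT mice.

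Markers of some other liver cells moved with the 10 genes, and their part in the results above was not tested. Of 16 tested markers shared by all macrophages 0 changed in WT, 9 rose in Pparα hep-/- and 14 rose in Pparα-/- mice with HFD. Adgre1, which encodes F4/80, rose by 0.65 and 0.93, and Cd68 by 0.69 and 1.17. The summed level of this list ran in WT mice from 14.33 to 16.21 on CTRL and from 14.02 to 16.42 on HFD, in Pparα hep-/- mice from 14.94 to 17.07 and from 15.24 to 16.20, and in Pparα-/- mice from 14.78 to 16.65 and from 15.62 to 16.67. The counts called higher without array weights were 0, 1 and 9. Tested directly, the HFD response differed from WT for 0 of 16 in Pparα hep-/- mice and for 2 of 16 in Pparα-/- mice. Of all probes 10.4% and 14.3% did so.

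Kupffer cells, the resident macrophages of the liver, gave another count. Of 11 tested markers 0 rose in Pparα hep-/- mice, and 6 rose and 1 fell in Pparα-/- mice. Tested directly, the HFD response differed between the deleted genotypes for 1 of 11 (Folr2), where 3.42% of all probes did. It differed from WT for 1 of 11 in each (Id3), below the 10.4% and 14.3% of all probes. Clec4f, which is restricted to Kupffer cells, was at -0.12 in Pparα hep-/- mice without a call and rose by 0.54 in Pparα-/- mice. Of 9 monocyte markers 3 rose and 1 fell in Pparα hep-/- and 6 rose and 1 fell in Pparα-/- mice, with Ccr2, the receptor that brings monocytes into tissue, higher by 0.92 and 0.65. Of 11 neutrophil markers 3 rose in each deleted genotype, and of 9 dendritic cell markers 1 and 3 rose, the 1 of 9 being near the share of all probes. Without array weights the markers that rose in Pparα hep-/- and Pparα-/- mice numbered 0 and 4 for Kupffer cells, 0 and 4 for monocytes, 0 and 0 for neutrophils, and 0 and 1 for dendritic cells.

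Of 12 stellate cell and fibroblast markers 8 rose in each deleted genotype and 0 in WT mice. Against WT on HFD 9 and 11 of these markers were higher and 0 lower, and 6 and 6 were higher without array weights. Their summed level ran in Pparα hep-/- mice from 14.87 to 16.91 on CTRL and from 15.63 to 16.37 on HFD. It ran in Pparα-/- mice from 14.36 to 16.25 and from 15.61 to 16.39, and in WT mice from 14.38 to 16.54 and from 14.22 to 16.85. The count that rose without array weights was 1 of 12 in each deleted genotype. The HFD response differed from WT for 1 of 12 in each, below the 10.4% and 14.3% of all probes. Of 10 bile duct markers 2 rose in Pparα hep-/- (Sox9 by 0.54 and Anxa4 by 0.35) and 1 in Pparα-/- mice, while Krt19 differed between diets by -0.42, 0.12 and 0.15 in the WT, Pparα hep-/- and Pparα-/- mice and Epcam by -0.22, 0.12 and 0.00, none called. No bile duct marker was called for HFD against CTRL without array weights. Of 10 hepatocyte markers 1 rose in each genotype, near the share of all probes, and 2, 1 and 2 fell. Of 10 lymphocyte markers 0 rose and 1 fell in each deleted genotype, and of 5 white adipocyte markers 3 rose in WT and 1 in each deleted genotype. Of 10 endothelial markers 1 rose in WT mice, while 3 rose in Pparα hep-/- mice and 4 rose in Pparα-/- mice. Without array weights 0 lymphocyte markers rose, adipocyte markers gave 1, 0 and 1, endothelial markers 2, 1 and 4, and hepatocyte markers 0, 1 and 0 in the WT, Pparα hep-/- and Pparα-/- mice.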

How the data were processed

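Liver RNA of 48 mice was read on 1-colour (Cy3) Agilent arrays, 1 per mouse and 59305 spots each. The authors scanned them with Agilent Feature Extraction 10.10.1.1 and deposited the scanner intensity of each spot, with probe positions in mm9, and a table of their own log2 normalised values for 32816 probes (made with limma per the labels). The median deposited spot intensity per array was 56 to 91, over a background of 20 to 36, with 28234 to 38217 spots well above background and 0 saturated. Their number of mice and this signal limit the precision.

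From the median intensity, log2 was taken after outlier spots were left out (193 missing values remained among tested probes), spots of a probe were averaged, a probe was kept if 4 or more of the 8 arrays in any group had it well above background, and arrays were quantile normalised. The fit in limma 3.58.1 (R 4.3.3) had a mean for each of the 6 groups, a term for the 2 wash batches and array weights. P-values were adjusted over all 33321 probes per comparison (Benjamini-Hochberg), with a call at 0.05 or less. All tests were two-sided. A gene is given by its tested probe of highest mean, and so are the pathway and marker genes, and the 10 genes that best match Trem2 are named by Pearson's r. The replicates were separate mice. The values correlated with the authors' at 0.999 or more on each array. The scripts were tested on simulated data.

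The genes and lists were chosen with earlier results of these data known. Alternatives tried were processed signal scaled at the 75th percentile, normexp, no or a stricter filter, no wash term, slide or replicate number as a block, no array weights, the authors' values, the mean over a gene's probes and each array left out. Wash batch also held 3 and 5 or 5 and 3 mice in the Pparα hep-/- groups, 4 and 4 in the others.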

Additional observations from a re-analysis of the deposited data

Results flagged for a closer look

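In 12 of the 60 groups of 8 mice (10 genes in 6 groups), Dixon's test found 1 mouse far above the next, where chance gives about 1 in 20. Of these, 8 were Pparα hep-/- CTRL mouse 1: Clec7a 13.31 (next highest 11.16), Itgax 10.58 (8.24), Cd44 9.19 (8.15), Gpnmb 10.77 (7.64), Cd9 12.19 (10.77), Cd63 14.69 (12.26), Spp1 14.74 (12.26) and Lgals3 13.07 (11.40). WT HFD mouse 6 gave 3, with Clec7a 12.74 (next 10.71), Cd63 13.73 (12.17) and Lgals3 12.69 (10.70). WT CTRL mouse 6 gave 1, Spp1 14.23 (next 12.21). In the same 3 mice the summed level of stellate cell and fibroblast markers was 1.68, 2.11 and 1.54 above the group's median, that of all macrophages 1.97, 1.54 and 1.51, and that of bile duct markers 1.15, 0.25 and 0.94, and hepatocyte markers lay at -0.08, -0.06 and -0.17 from it. The part of these cells in the results was not tested.

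The HFD response differed from that of WT mice by a direct test in limma for 6 results: in Pparα hep-/- mice Gpnmb by 2.97, Cd9 by 1.22, Cd63 by 1.67 and Mmp12 by 1.54, and in Pparα-/- mice Cd9 by 1.4 and Cd63 by 1.42. Gpnmb and Mmp12 were not well above background on most WT arrays, so the sizes of their differences rest largely on background signal.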

How the results depend on the processing

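Of 45 called results of single genes, 35 kept their call in each alternative that retained array weights or left out the 4 arrays of weight under 0.4 (single-array omissions not counted here), and none changed direction in any. Without array weights 15 of 45 kept it. The counts of called genes then were 0 for HFD in Pparα hep-/-, 4 for HFD in Pparα-/-, 0 for Pparα-/- against WT on CTRL, 3 for Pparα hep-/- and 6 for Pparα-/- against WT on HFD, 0 for Pparα-/- against Pparα hep-/- on HFD, and 0 and 1 for the responses of Pparα hep-/- and Pparα-/- mice against WT. With the array of lowest weight also left out they were 3, 6, 0, 5, 6, 0, 0 and 1. This setting, the one without 4 arrays and the omission of single arrays with weights were chosen after seeing the data.

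Other settings moved these counts. Pparα-/- against WT on CTRL (2 genes) gave 4 with the processed signal and 1 with no wash term, a slide block, no filter or a replicate block. Pparα-/- against Pparα hep-/- on HFD (1) gave 0 with no filter. The response of Pparα hep-/- against WT (4) gave 1 with no wash term or no filter and 2 with a slide block, the authors' values or a replicate block. That of Pparα-/- against WT (2) gave 1 with no wash term, a slide block, no filter, the authors' values or a replicate block, 4 with the mean over probes and 5 without the 4 arrays. The cause was not tested.

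Leaving out 1 array at a time, the counts in the order of HFD in WT, Pparα hep-/- and Pparα-/-, CTRL comparisons (Pparα hep-/- with WT, Pparα-/- with WT, Pparα-/- with Pparα hep-/-), the same on HFD, and the responses ran from 1 to 1, 7 to 8, 7 to 9, 0 to 1, 1 to 4, 0 to 1, 9 to 9, 9 to 10, 0 to 1, 2 to 4, 1 to 7 and 0 to 0. WT CTRL mouse 8, Pparα hep-/- CTRL mouse 1 and Pparα hep-/- HFD mouse 6 made the changes between 0 and 1, Pparα hep-/- CTRL mouse 4 or HFD mouse 5 took the Pparα hep-/- response to 2, and 12 and 30 arrays moved the Pparα-/- counts on CTRL and of the response by over 1.5 times. The relation of Spp1 to Trem2 was 0.22 in the second wash batch.

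Little sign was seen that the replicate numbers pair the mice, and pairing was not tested. Deviations of same-numbered mice correlated at a mean r of 0.014 over 120 pairs (range -0.45 to 0.69), against -0.001 over the 840 others. Of the 120, 35 were over 0.1, and 11 of 48 arrays correlated best with their own number. No expected value was computed for these counts. With a replicate block 40 of 45 calls were kept, and Spp1 in Pparα-/- against WT on HFD was lost (adjusted p = 0.0612, limma).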

Other observations

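Within Pparα-/- mice, the HFD change of each of the 8 called genes was smaller in the second wash batch than in the first. Levels differed between wash batches themselves, with the second minus the first at 0.86 for Gpnmb, 0.71 for Mmp12, 0.67 for Trem2, 0.06 for Cd9 and -0.02 for Cd44. WT HFD mouse 2, which had the highest Spp1 level of its group, had summed neutrophil and Kupffer cell levels 0.95 above the group's median each. In Pparα-/- mice on HFD, 6 of 11 Kupffer cell markers rose but Cd163, a scavenger receptor for haemoglobin, fell by 1.33. Without array weights 4 rose and 0 fell, so the Cd163 call was lost.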
